A study of Arabidopsis thaliana with 12 samples.

Results

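A set of 100 genes of Arabidopsis thaliana leaves was examined whose transcript level was low in the Polycomb mutant clf29 and at least 2 times as high again in the combined mutant trb45 clf29. The members were chosen by measured values. From CPM values (the count of a gene as a share of the total count of its library, scaled to 1e6), averaged over the 3 libraries of a group, a gene was taken when its WT mean was at least 1 CPM, its clf29 mean was at most 50 percent of the WT mean, and its trb45 clf29 mean was at least 2 times its clf29 mean. Of the 28775 genes in the table, 16255 reached the WT minimum, 551 of these were that low in clf29, and 440 of the 551 did not meet the last condition. The rule left out 11 iron uptake and signalling genes by name, all of which met the 3 conditions, so 100 members remained.

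RNA came from mature leaves of soil-grown plants under long days, taken at day 21 without treatment, in 4 genotypes with 3 libraries each. The groups were trb45 clf29 (line trb45-1 combined with the clf29 mutation), clf29 (the clf29 mutation alone), trb45 (line trb45-1, with mutated TRB4 and TRB5) and WT (Col-0). The labels name 1 trb45 line for these libraries and do not say whether libraries of a group came from separate plants or pools, so p-values measure the spread between these libraries, which may be technical. Another trb45 line and the trb123 triple mutant named in the design of the series were not analysed here.

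CLF is a catalytic subunit of Polycomb repressive complex 2 (PRC2), which places methyl groups on lysine 27 of histone H3 and keeps developmental genes silent, among them flower genes in leaves. TRB proteins bind telomere repeats and short telomere-like motifs in promoters, called teloboxes, and several of them contact PRC2.

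Total counts were 53545914 to 53682961 in trb45 clf29, 53985071 to 54215882 in clf29, 45519206 to 54100770 in trb45 and 53923647 to 54047574 in WT, and 3 counts corresponded to 0.0553 to 0.0659 CPM. CLF had 0.0931, 0.149 and 0.187 CPM in trb45 clf29 and 0, 0.0185 and 0.203 CPM in clf29, against 12.7 to 16.1 CPM in trb45 and 10.9 to 13.1 CPM in WT. TRB5 (AT1G72740) had 1.04 to 1.66 CPM in trb45 clf29 and 1.801 to 4.64 CPM in trb45, against 15.2 to 19.4 CPM in clf29 and 16.7 to 19.4 CPM in WT. TRB4 (AT1G17520) had 1.15 to 1.27 CPM in trb45 clf29 and 1.36 to 3.25 CPM in trb45, against 3.80 to 4.50 CPM in clf29 and 4.90 to 6.59 CPM in WT. All 6 mesophyll markers were detected in every group, and their summed level was 70140 to 73650 CPM in trb45 clf29, 65480 to 68190 in clf29, 68460 to 73290 in trb45 and 66470 to 69560 in WT. The 4 flower organ markers AG, AP3, PI and SEP3 summed to 88.1 to 92.0 CPM in trb45 clf29 and 95.3 to 108.5 CPM in clf29, against 0.980 to 1.02 CPM in trb45 and 0.703 to 0.927 CPM in WT. The 5 guard cell markers summed to 72.3 to 77.3 CPM in trb45 clf29 and 68.2 to 72.8 CPM in clf29, against 82.7 to 94.6 CPM in trb45 and 88.0 to 95.6 CPM in WT. The 4 phloem markers summed to 464.9 to 547.5 CPM in trb45 clf29 and 465.6 to 532.6 CPM in clf29, against 615.9 to 708.7 CPM in trb45 and 631.7 to 681.3 CPM in WT. The 4 xylem markers were highest in clf29, with sums of 74.0 to 90.0 CPM in trb45 clf29 and 105.7 to 106.4 CPM in clf29, against 74.7 to 79.2 CPM in trb45 and 78.8 to 84.0 CPM in WT. Of the anther and pollen markers, A9 was counted but left out because its symbol was not matched. The remaining 3 summed to 0 to 0.224 CPM in trb45 clf29 and 2.33 to 9.54 CPM in clf29, against 0.0739 to 0.264 CPM in trb45 and 0 to 0.0740 CPM in WT. All of the clf29 sum came from MS2, and the other two were at 0 there. The 4 trichome markers were lowest in WT, with sums of 3.63 to 4.71 CPM. Their sums were 5.86 to 8.72 CPM in trb45 clf29, 7.17 to 7.52 in clf29 and 6.30 to 8.15 in trb45. Sums of the 7 root markers overlapped between all groups, at 59.2 to 70.7 CPM in trb45 and 60.1 to 67.2 in WT. The 3 seed markers summed to 1.49 to 2.05 CPM in trb45 and at most 0.820 in the other groups. The 3 meristem markers summed to at most 0.996 CPM. The part of cell composition in the results was not tested. In whole leaves, fewer cells of a type and less RNA per cell cannot be told apart.

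In the values that chose them, the members had a median of 87.5% of the WT mean in trb45 clf29 and 33.1% in clf29. The trb45 libraries, which took no part in the choice, had a median of 108% of the WT mean. In trb45 clf29, 36 members reached or passed the WT mean, 47 lay between 50% and 100% of it and 17 stayed under 50%, 9 of them under 25%. The ratio of the trb45 clf29 mean to the clf29 mean had a median of 2.76 over the members. Every clf29 library was below every trb45 clf29 library and every WT library for 91 members, a separation that 8.23% of all 19138 genes tested also had, and the rule used these values. IAA29 is among the 91, although its highest clf29 library and lowest trb45 clf29 library were both under 3 counts. By the annotation, 99 members encode proteins, and the other, TAS1A, is a noncoding precursor of trans-acting small RNAs.

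**Figure D1:**
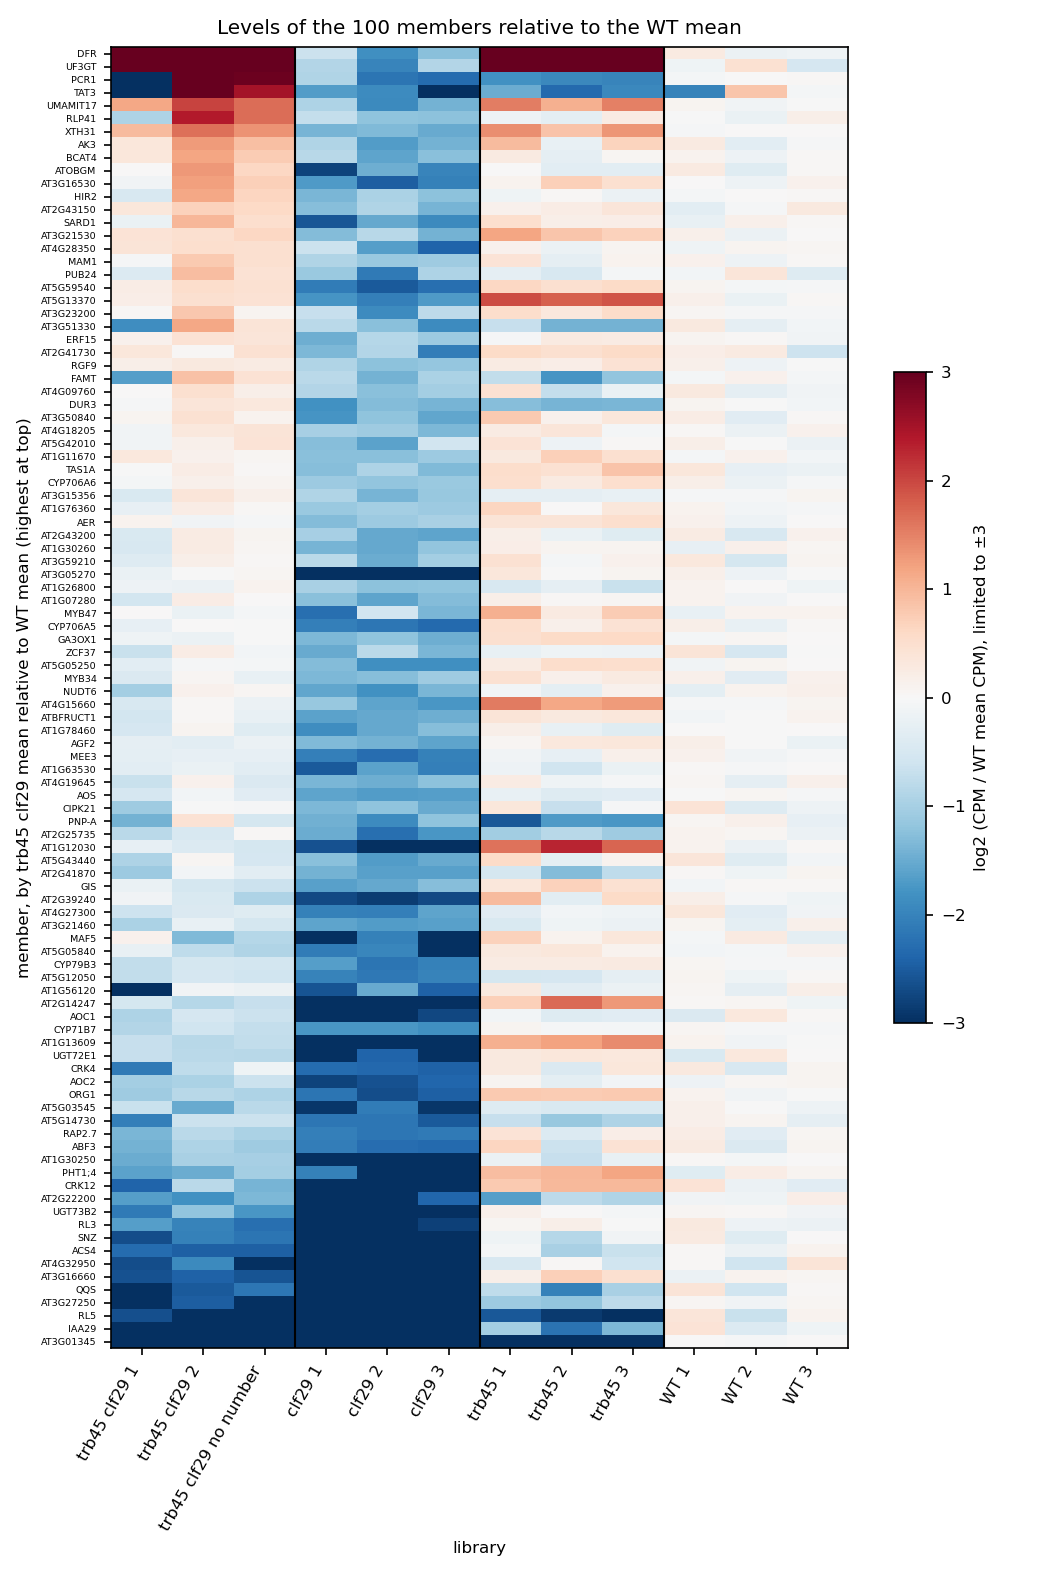
Level of each of the 100 members (rows, ordered by the trb45 clf29 mean relative to the WT mean) in each of the 12 libraries (columns), as log2 of CPM over the WT mean CPM, limited to ±3. The clf29 columns are blue for nearly all rows because the rule chose low clf29 means, the trb45 clf29 columns run from 1955% of the WT mean at the top (DFR) to near 0 at the bottom (AT3G01345), and replicate 1 of trb45 clf29 is paler or bluer than the other two libraries in many rows.

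The 3 trb45 clf29 libraries were not alike. Replicate 1 had the lowest level of its group for 77 of the 100 members, against 47.1% of all genes tested, and replicate 2 had the highest for 65 members. The median of the members was 71.2% of the WT mean in replicate 1, 101% in replicate 2 and 95.2% in the library without a number, and 30, 15 and 15 members were under 50% of the WT mean in these libraries. The clf29 libraries were closer to each other, with medians of 32.8%, 29.1% and 30.4%. The trb45 libraries were less close than these, at 118%, 95.7% and 108%. Uneven libraries were not confined to trb45 clf29. By chi-square per degree of freedom over genes, where more is less alike, replicates 1 and 2 had 30.1 in trb45, 25.3 in trb45 clf29 and 22.3 in WT. Without replicate 1 of trb45 clf29 the rule gave 124 genes, of which 98 were members, and without replicate 2 it gave 87 genes, 86 of them members.

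The choice was also repeated on 2 libraries a group and read in the library of each group that had been left out. With replicate 1 left out, 131 genes were chosen and 44 of them (33.6%) met both ratios of the rule in the libraries left out. With replicate 2 left out, 63 of 92 (68.5%) met both, and with the third left out, 75 of 105 (71.4%) did. The directions alone, clf29 below WT and trb45 clf29 above clf29, held for 115 of 131, 87 of 92 and 103 of 105 genes.

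**Figure D2:**
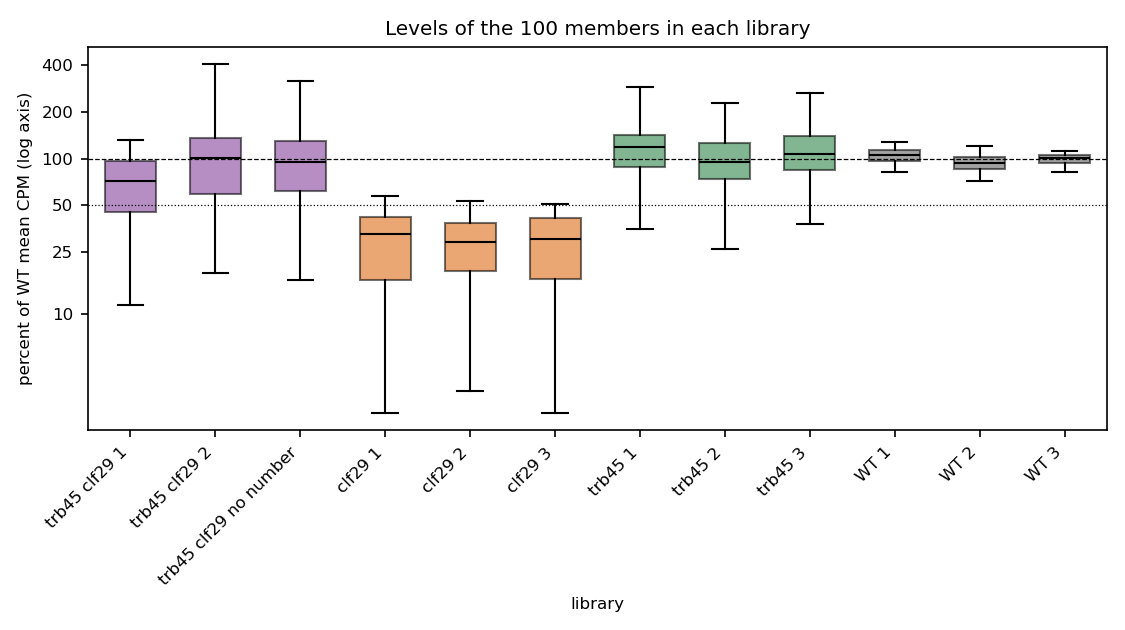
Distribution over the 100 members of the level in each library as percent of the WT mean (log axis), with boxes from the lower to the upper quartile, the line at the median and whiskers at the 5th and 95th percentiles. Dashed and dotted lines mark 100% and 50% of the WT mean. Replicate 1 of trb45 clf29 has a median of 71.2%, between the clf29 libraries (29.1% to 32.8%) and the other two trb45 clf29 libraries (95.2% and 101%).

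The members nearest to the thresholds show how sharp the choice was. ZCF37, ATOBGM and UF3GT were just inside the WT minimum with means of 1.01, 1.02 and 1.03 CPM, and RAP2.9, AT5MAT and AT3G48080 lay just outside with 0.994, 0.994 and 0.970 CPM. MAM1, AT3G23200 and RLP41 were the last to be low enough in clf29, at 0.493, 0.491 and 0.490 of the WT mean, and AT2G34655, AT5G17040 and ROH1 missed at 0.504, 0.513 and 0.514. RL5, GIS and MYB34 had just enough recovery, at 2.02, 2.03 and 2.05 times the clf29 mean, and COR15A, BBD1 and AT5G22270 missed at 2.00, 1.99 and 1.98.

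How the same genes behaved in trb45 alone was tested next, since the rule did not use the trb45 libraries. In trb45 leaves against WT leaves, 25 members were higher and 14 were lower, against 14.5% higher and 11.2% lower of all 19138 genes tested (edgeR quasi-likelihood test, Benjamini-Hochberg adjusted p under 0.05), and 61 were not called. The median log2 fold change of the members was 0.10, beside 0.01 over all genes tested. Without trb45 replicate 1 it was -0.02, and without WT replicate 2 it was 0.05. The WT libraries entered the rule, so a WT level that was high by chance would favour membership and lower this ratio. Groups of libraries did not overlap for 24 of the 25 higher and all 14 lower members, beside 94.9% of all higher and 90.6% of all lower calls in this comparison. Called increases ran from 0.28 to 4.82 on the log2 scale and called decreases from -0.33 to -11.01. Of the 25 increases 10 had a log2 fold change of at least 1, and of the 14 decreases 9 had one of -1 or under.

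Loss of CLF in the trb45 background was tested by the comparison of trb45 clf29 with trb45. There 14 members were higher and 36 were lower, against 15.8% higher and 14.7% lower of all genes tested, and 50 were not called. The median log2 fold change of the members was -0.20, beside 0.00 over all genes. It was -0.10 without replicate 1 of trb45 clf29 and -0.33 under scaling by library size alone. The trb45 clf29 libraries entered the rule, which asked for a high level in them, and the trb45 libraries did not. Of the 36 lower members 35 had no overlap between the libraries, beside 93.4% of all lower calls in this comparison. Of the 14 higher members only BCAT4, PNP-A and DUR3 had none, beside 68.1% of all higher calls. This comparison and that of trb45 with WT share the trb45 libraries. Without replicate 1 of trb45 clf29, 22 members were called higher and 31 lower. Without replicate 2 the counts were 5 and 32, without the library that has no number 8 and 31, and without trb45 replicate 3 they were 7 and 28. Under scaling by library size alone 9 members were higher and 40 lower, and the median of all genes moved by -0.13, so that higher calls made up 25.2% of all calls against 51.8% with TMM factors.

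**Figure D3:**
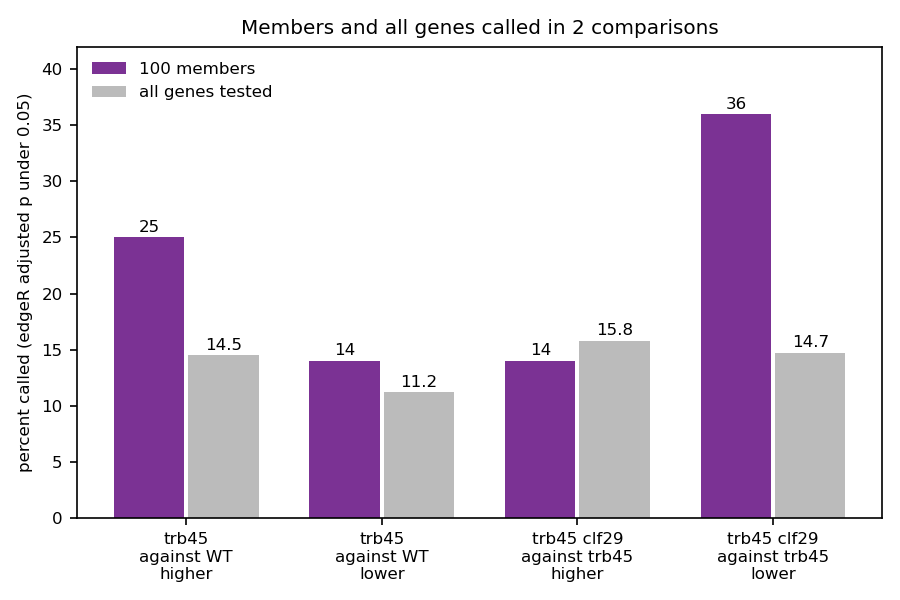
Percent of the 100 members and of all 19138 genes tested that were called higher or lower with edgeR (adjusted p under 0.05), first in trb45 against WT and then in trb45 clf29 against trb45. The largest gap is in the last pair of bars, where 36% of the members and 14.7% of all genes were lower in trb45 clf29 than in trb45.

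In the order of replicates 1 and 2 and the library without a number for trb45 clf29, and of replicates 1, 2 and 3 for the other groups, levels of single members follow by role, all in CPM. The roles were assigned after the values had been seen, to 58 of the 100 members. The counts of calls in these groups are a description, to be read against the shares of all genes tested given above (14.5% higher and 11.2% lower in trb45 against WT, 15.8% higher and 14.7% lower in trb45 clf29 against trb45). Where a call given with its values was lost when a library was left out of the fit, that library is named with the highest adjusted p of those fits. Levels in CPM are not divided by gene length, so they compare a gene between libraries and not different genes.

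Allene oxide synthase and allene oxide cyclase catalyse successive plastid steps of jasmonate synthesis, and 1 synthase gene and 2 cyclase genes were members. AOS, the synthase, had 115, 155 and 129 CPM in trb45 clf29, 54.9, 50.8 and 51.8 in clf29, 140.4, 126 and 129.8 in trb45 and 163, 169 and 159 in WT. Its clf29 libraries were the lowest, and its trb45 clf29 libraries spanned those of trb45 and stayed below WT. AOS was lower in trb45 than in WT, with a log2 fold change of -0.33 (SE 0.08, adjusted p = 0.00719), and the difference between trb45 clf29 and trb45 was not called (log2 fold change 0.15, SE 0.08, adjusted p = 0.188). AOC2 had 8.85, 9.35 and 11.5 CPM in trb45 clf29, 2.63, 2.96 and 3.49 in clf29, 19.2, 14.7 and 17 in trb45 and 16.1, 18.8 and 19.1 in WT. No trb45 clf29 library reached a trb45 or WT library, and AOC2 was lower in trb45 clf29 than in trb45 (log2 fold change -0.64, SE 0.12, adjusted p = 0.00137). AOC1 had 2.81, 3.77 and 3.42 CPM in trb45 clf29, 0.5, 0.296 and 0.812 in clf29, 5.05, 4.13 and 4.26 in trb45 and 3.98, 6.68 and 5.47 in WT. Neither of the 2 comparisons called it. Of the 16 genes of a jasmonate list that were tested, AOS and AOC1 among them, 0 were higher (2 at an unadjusted p under 0.05, 1 by DESeq2) and 4 lower in trb45 against WT. In trb45 clf29 against trb45, 3 were higher and 1 lower. In clf29 against WT, a contrast that the rule used, 5 of the 16 were higher and 4 lower, where 18.5% of all genes were higher and 16.2% lower. AOS and AOC1 were low there by the rule. The synthesis gene LOX2 and the defence protein genes VSP1 and VSP2 were among those higher in clf29. LOX2 had 752 ± 84.0 CPM in clf29 against 431 ± 58.3 CPM in WT (mean ± SD, n = 3).

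AOC1 and AOC2 stand next to each other on chromosome 3 on the forward strand with 1330 bases between them, and their reads may have been shared between near-identical coding parts in a way that cannot be checked here. Their upstream bases are shown because the pair was low and recovered together. The 250 bases before each annotated gene start (RefSeq, TAIR10.1, chr3:9403529-9403778 and chr3:9406419-9406668) hold a common run of 19 bases, in capitals. It ends 99 bases before the start of AOC1 and directly at the start of AOC2. In AOC2 that is the edge of the window, and bases beyond it were not searched.
AOC1: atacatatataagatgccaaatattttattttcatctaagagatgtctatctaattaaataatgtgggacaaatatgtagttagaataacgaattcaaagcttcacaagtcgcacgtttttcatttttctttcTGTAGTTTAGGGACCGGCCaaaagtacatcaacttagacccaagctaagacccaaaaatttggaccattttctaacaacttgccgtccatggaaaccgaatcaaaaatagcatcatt
AOC2: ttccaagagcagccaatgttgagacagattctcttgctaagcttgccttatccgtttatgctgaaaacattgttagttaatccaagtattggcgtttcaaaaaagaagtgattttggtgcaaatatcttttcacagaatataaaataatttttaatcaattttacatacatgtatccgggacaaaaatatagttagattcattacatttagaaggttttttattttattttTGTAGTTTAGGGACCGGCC

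Glucosinolates are sulphur-containing defence compounds of the cabbage family, made by an aliphatic branch from methionine and an indolic branch from tryptophan. MAM1 and BCAT4, chain elongation enzymes of the aliphatic branch, were members, and so were CYP79B3, an entry enzyme of the indolic branch, and MYB34, a regulator of that branch. BCAT4 had 55, 99.8 and 73.8 CPM in trb45 clf29, 24.6, 14.6 and 18.3 in clf29, 53.2, 36.5 and 45.5 in trb45 and 46.8, 39.5 and 45.1 in WT. Every trb45 clf29 library was above every trb45 and WT library, and BCAT4 was higher in trb45 clf29 than in trb45 (log2 fold change 0.89, SE 0.18, adjusted p = 0.00195). MAM1 had 112, 200.1 and 161 CPM in trb45 clf29, 61.9, 53.5 and 55.4 in clf29, 154, 96.4 and 125 in trb45 and 126, 103 and 117 in WT. It was higher in trb45 clf29 than in trb45 (log2 fold change 0.47, SE 0.16, adjusted p = 0.0338, lost without trb45 replicate 2 or 3, trb45 clf29 replicate 2, or the unnumbered trb45 clf29 library, with adjusted p up to 0.181), with overlap between these groups through replicate 1 of trb45 clf29 and replicates 1 and 3 of trb45. CYP79B3 had 22, 25.5 and 24.9 CPM in trb45 clf29, 11.7, 8.04 and 9.06 in clf29, 43.7, 43.3 and 44 in trb45 and 38.2, 35.8 and 36.1 in WT. It showed the opposite change to BCAT4, with a log2 fold change of -0.72 (SE 0.09, adjusted p = 4.72e-05) in trb45 clf29 against trb45 and no overlap. MYB34 had 11.8, 16.5 and 13.6 CPM in trb45 clf29, 6.26, 6.5 and 7.62 in clf29, 21.9, 17.62 and 19.2 in trb45 and 17.8, 12.6 and 17.3 in WT. It was lower in trb45 clf29 than in trb45 (log2 fold change -0.36, SE 0.13, adjusted p = 0.0419, lost without trb45 replicate 1 or 3, clf29 replicate 2, trb45 clf29 replicate 1, or the unnumbered trb45 clf29 library, with adjusted p up to 0.158). None of the 4 was called in trb45 against WT, where 2 of them were higher at an unadjusted p under 0.05 and DESeq2 called 0.

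All 19 genes of a glucosinolate list, the 4 members included, were tested. In trb45 clf29 against trb45, 9 of the 19 were higher and 3 lower, with a median log2 fold change of 0.27 beside 0.00 over all genes. In trb45 against WT, 3 were higher and 2 lower, with a median of 0.10 beside 0.01. The 2 lower were TGG1 and TGG2 (log2 fold changes -0.65 and -1.81), genes of myrosinases, enzymes that break glucosinolates down. Of the 3 higher, MAM3 had a WT mean of 0.0618 CPM, near the floor of 3 counts. TGG2 and MAM3 were also among the 9 higher in trb45 clf29 against trb45. In the contrasts that the rule used, 0 of the 19 were higher (1 at an unadjusted p under 0.05) and 12 lower in clf29 against WT, where 18.5% of all genes were higher and 16.2% lower, and 16 were higher and 1 lower in trb45 clf29 against clf29, where 17.2% of all genes were higher and 14.2% lower. For the 4 members the rule fixed the direction in both of these contrasts. The gene lower in trb45 clf29 than in clf29 was the myrosinase gene TGG2. Genes of the list outside the member set included CYP79F1 and CYP79B2, whose clf29 means were 59.3% and 36.4% of WT.

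**Figure D4:**
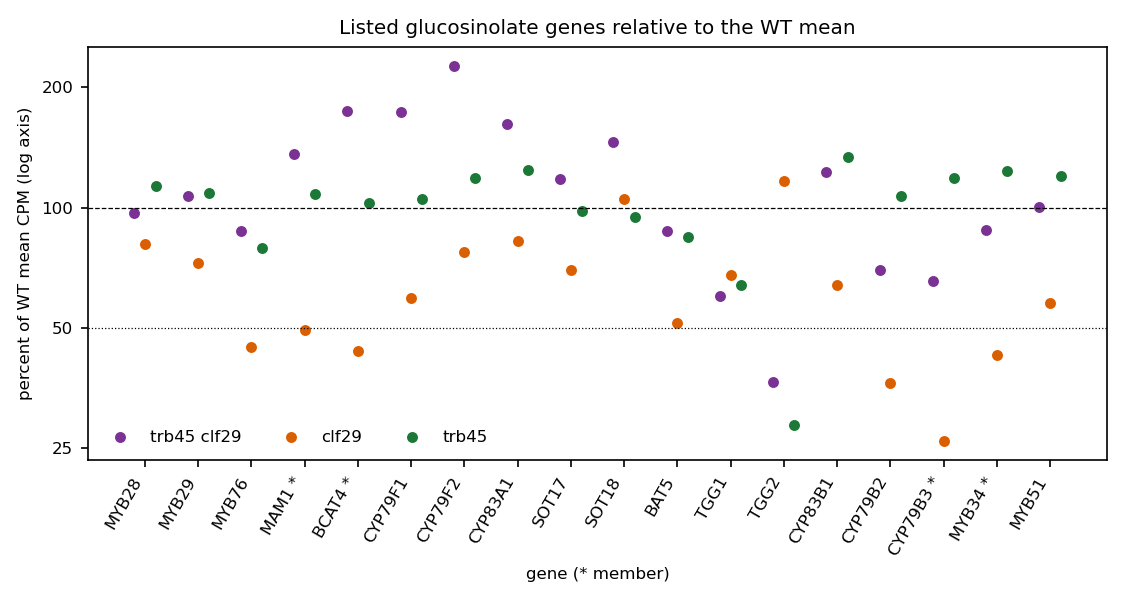
Mean CPM of the listed glucosinolate genes in trb45 clf29, clf29 and trb45 as percent of the WT mean (log axis), with the 4 members marked by an asterisk. MAM3 is left out because its WT libraries lay near the floor of 3 counts. The clf29 points lie below 100% for all genes drawn except SOT18 and TGG2, and the trb45 clf29 points of the aliphatic genes BCAT4, CYP79F1 and CYP79F2 lie highest.

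Floral repressors delay flowering in young plants. RAP2.7 (also called TOE1) and SNZ encode AP2-type repressors of the flowering signal FT, and MAF5 encodes a MADS-box relative of FLC. RAP2.7 had 25.1, 36.9 and 33.4 CPM in trb45 clf29, 15.7, 14.4 and 14.9 in clf29, 86.4, 48.8 and 74.6 in trb45 and 75.8, 51 and 68 in WT. Its trb45 clf29 libraries lay above clf29 and below trb45 and WT with no overlap, and the decrease against trb45 was -0.998 (SE 0.16, adjusted p = 0.0004). SNZ had 3.13, 4.87 and 4.33 CPM in trb45 clf29, 1.63, 1.57 and 1.88 in clf29, 18.1, 11 and 18.3 in trb45 and 23.8, 15.4 and 20.03 in WT. Its trb45 clf29 mean was 20.8% of WT, and it was lower in trb45 clf29 than in trb45 (log2 fold change -1.81, SE 0.18, adjusted p = 5.46e-06). MAF5 had 2.24, 0.821 and 1.14 CPM in trb45 clf29, 0.037, 0.5 and 0.258 in clf29, 3.33, 2.2 and 2.61 in trb45 and 1.98, 2.48 and 1.69 in WT. Libraries of trb45 clf29 and WT overlapped, and MAF5 was called in neither comparison. SNZ and the neighbouring member AT2G39240 lie on the same strand with 188 bases between them. AT2G39240, annotated as an RNA polymerase I initiation factor, had 1.12, 0.877 and 0.635 CPM in trb45 clf29, 0.185, 0.167 and 0.184 in clf29, 2.31, 0.967 and 1.795 in trb45 and 1.35, 1.17 and 1.09 in WT. Its decrease in trb45 clf29 against trb45 was -0.81 (SE 0.29, adjusted p = 0.0425, lost in 10 of the 12 fits that left out a library, with adjusted p up to 0.236), and the libraries overlapped.

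Hormone synthesis and response genes made up 8 members, of which 3 were higher and 1 lower in trb45 against WT (14.5% and 11.2% of all genes). In trb45 clf29 against trb45, 6 of them were lower and 0 higher (14.7% and 15.8% of all genes). GA3OX1, which makes bioactive gibberellin, had 20.4, 19.9 and 22.2 CPM in trb45 clf29, 8.81, 9.69 and 8.12 in clf29, 31.4, 33.3 and 33.8 in trb45 and 21.5, 23.3 and 22.5 in WT. The trb45 libraries were the highest of all, the trb45 clf29 libraries overlapped WT, and the log2 fold changes were 0.54 (SE 0.08, adjusted p = 0.000198) in trb45 against WT and -0.52 (SE 0.08, adjusted p = 0.000308) in trb45 clf29 against trb45. AGF2, an AT-hook protein of gibberellin feedback, was lower in trb45 clf29 than in trb45 (log2 fold change -0.36, SE 0.12, adjusted p = 0.03, lost without trb45 replicate 2 or 3, trb45 clf29 replicate 1 or 2, or the unnumbered trb45 clf29 library, with adjusted p up to 0.107). AT5G13370, a GH3 family gene, had 6.91, 8.38 and 8.18 CPM in trb45 clf29, 1.78, 1.46 and 1.86 in clf29, 23.3, 21 and 22.4 in trb45 and 6.72, 5.23 and 6.17 in WT. Its mean was 129.5% of WT in trb45 clf29 and 369% in trb45, with log2 fold changes of 1.87 (SE 0.10, adjusted p = 3.25e-09) in trb45 against WT and -1.37 (SE 0.10, adjusted p = 1.07e-07) in trb45 clf29 against trb45. IAA29, an auxin response repressor, had 0.0373, 0.187 and 0.112 CPM in trb45 clf29, 0.037, 0 and 0 in clf29, 1.42, 0.615 and 1.13 in trb45 and 3.79, 2.17 and 2.63 in WT. All 3 clf29 libraries held 3 counts or fewer, so the trb45 clf29 mean was at least 2.02-fold higher than the clf29 floor of 3 counts a library. Replicate 1 of trb45 clf29, at 0.0373 CPM, was itself under its floor of 0.0559 CPM, so it showed no recovery. The trb45 clf29 mean was 3.91% of WT. IAA29 was also lower in trb45 than in WT (log2 fold change -1.44, SE 0.33, adjusted p = 0.00474), and lower in trb45 clf29 than in trb45 (log2 fold change -3.08, SE 0.47, adjusted p = 0.000243). ACS4, an ethylene synthesis enzyme, and ABF3, an abscisic acid response factor, were not called in trb45 against WT and were lower in trb45 clf29 than in trb45, ACS4 (log2 fold change -1.75, SE 0.24, adjusted p = 0.000112) and ABF3 (log2 fold change -1.22, SE 0.23, adjusted p = 0.00142). ABF3 had 4.86, 6.85 and 6.16 CPM in trb45 clf29, 3.06, 2.63 and 2.56 in clf29, 20.1, 8.22 and 17.43 in trb45 and 15.6, 9.51 and 13.7 in WT. Replicate 2 of trb45 came near the highest trb45 clf29 library. RGF9, a secreted growth factor peptide, had 48.6, 52.7 and 51.6 CPM in trb45 clf29, 23.1, 18.3 and 19.3 in clf29, 51.4, 49.5 and 58.1 in trb45 and 47.8, 38.7 and 43.1 in WT. It was raised in trb45 relative to WT (log2 fold change 0.28, SE 0.08, adjusted p = 0.0168, lost without WT replicate 2 or 3 or trb45 replicate 3, with adjusted p up to 0.123). ERF15, an ethylene response factor, was called in neither comparison.

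Small MYB-like proteins of the RADIALIS-like family were represented by MEE3 (also called RL2), RL3 and RL5, of which RL5 alone was called in trb45 against WT. MEE3 had 4.94, 5.09 and 5.17 CPM in trb45 clf29, 1.48, 1.24 and 1.49 in clf29, 5.67, 5.14 and 6.74 in trb45 and 6.7, 5.64 and 5.93 in WT. The trb45 clf29 libraries came to 83.2% of the WT mean. RL3 had 1.14, 0.895 and 0.747 CPM in trb45 clf29, 0.37, 0.222 and 0.516 in clf29, 3.75, 4.02 and 3.54 in trb45 and 4.37, 3.23 and 3.17 in WT. Its trb45 clf29 libraries stayed far below trb45, with a log2 fold change of -1.89 (SE 0.22, adjusted p = 2.38e-05). RL5 had 0.261, 0 and 0.112 CPM in trb45 clf29, 0.037, 0.0741 and 0.0738 in clf29, 0.277, 0.22 and 0.148 in trb45 and 2.07, 1.02 and 1.74 in WT. It met the rule between means of a few counts. Libraries of trb45 clf29 and clf29 overlapped, 1 of them at 0, and RL5 was lower in trb45 than in WT (log2 fold change -2.90, SE 0.51, adjusted p = 0.000629). Of the other transcription factors, GIS, a zinc finger regulator of trichome initiation, had 9.26, 7.33 and 6.76 CPM in trb45 clf29, 3.44, 3.69 and 4.37 in clf29, 13.4, 17.2 and 14.5 in trb45 and 10.1, 10.8 and 10.9 in WT. GIS was higher in trb45 than in WT (log2 fold change 0.49, SE 0.14, adjusted p = 0.0149, lost without WT replicate 1 or 3 or trb45 replicate 2, with adjusted p up to 0.0878), and lower in trb45 clf29 than in trb45 (log2 fold change -0.82, SE 0.14, adjusted p = 0.000558). The AP2/ERF gene AT2G22200 was lower in trb45 than in WT (log2 fold change -1.08, SE 0.29, adjusted p = 0.0118, lost without WT replicate 3, with adjusted p up to 0.0561). MYB47 was called in neither comparison.

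Anthocyanin pigments are made by late flavonoid enzymes, and DFR and UF3GT, a reductase and a glucosyltransferase of that stage, were the members that overshot WT most. DFR had 44.7, 35.4 and 43.4 CPM in trb45 clf29, 1.35, 0.593 and 0.885 in clf29, 63.3, 57.8 and 58.8 in trb45 and 2.53, 1.85 and 1.93 in WT. The trb45 and trb45 clf29 libraries were all far above WT, and DFR was higher in trb45 than in WT (log2 fold change 4.82, SE 0.16, adjusted p = 9.61e-12). UF3GT had 13.3, 11.7 and 11.4 CPM in trb45 clf29, 0.556, 0.259 and 0.553 in clf29, 19.3, 14.1 and 16.8 in trb45 and 0.944, 1.41 and 0.723 in WT. It too was higher in trb45 than in WT (log2 fold change 4.01, SE 0.21, adjusted p = 2.23e-09). In trb45 clf29 against trb45, DFR was lower (log2 fold change -0.41, SE 0.12, adjusted p = 0.0197, lost without trb45 replicate 1 or trb45 clf29 replicate 2, with adjusted p up to 0.085), and UF3GT was not called (log2 fold change -0.33, SE 0.16, adjusted p = 0.14). The trb45 clf29 means were 1955% of WT for DFR and 1182% for UF3GT. Of 11 flavonoid genes tested, the 2 members among them, 10 were higher and 0 lower (1 at an unadjusted p under 0.05, 0 by DESeq2) in trb45 against WT, with a median log2 fold change of 2.68 beside 0.01 over all genes. In trb45 clf29 against trb45, 1 of the 11 was higher and 4 were lower.

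Cytochrome P450 and glucosyltransferase genes modify small molecules, and 5 members fell in this group. All 5 were lower in trb45 clf29 than in trb45, as were 14.7% of all genes. The flavonol glucosyltransferase gene UGT73B2 had 1.01, 1.92 and 1.31 CPM in trb45 clf29, 0.481, 0.333 and 0.516 in clf29, 4.84, 4.39 and 4.24 in trb45 and 4.57, 4.51 and 4.08 in WT. Its decrease in trb45 clf29 against trb45, -1.54 (SE 0.19, adjusted p = 4.18e-05), was the largest of the 5. UGT72E1, a glucosyltransferase of lignin precursors, was lower (log2 fold change -0.96, SE 0.21, adjusted p = 0.00323), and so was CYP71B7 (log2 fold change -0.58, SE 0.07, adjusted p = 2.34e-05). CYP706A5 and CYP706A6 are neighbours with 1094 bases between them, and reads may be shared between such related copies. CYP706A6 had 56.4, 65.5 and 63 CPM in trb45 clf29, 27.8, 26 and 27.2 in clf29, 84.1, 71.2 and 83.6 in trb45 and 67, 52.5 and 57.7 in WT. Its trb45 clf29 libraries overlapped WT and lay below all trb45 libraries, with 0.42 (SE 0.07, adjusted p = 0.000585) in trb45 against WT and -0.24 (SE 0.07, adjusted p = 0.0237, lost without trb45 replicate 1 or 3, trb45 clf29 replicate 1, or the unnumbered trb45 clf29 library, with adjusted p up to 0.089) in trb45 clf29 against trb45. CYP706A5 had 14.5, 17.5 and 17.2 CPM in trb45 clf29, 4.17, 3.85 and 3.45 in clf29, 24.4, 19.2 and 23.3 in trb45 and 19.5, 14.7 and 17.55 in WT. It was higher in trb45 than in WT (log2 fold change 0.36, SE 0.10, adjusted p = 0.0135, lost without WT replicate 2 or trb45 replicate 1 or 3, with adjusted p up to 0.0635) although replicate 2 of trb45 was below replicate 1 of WT. In trb45 clf29 CYP706A5 was lower than in trb45 (log2 fold change -0.31, SE 0.10, adjusted p = 0.0254, lost without trb45 replicate 1 or 3 or trb45 clf29 replicate 1, with adjusted p up to 0.102).

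Receptor kinases, lectins and other defence genes were the largest group, with 13 members, and in all 13 the lowest trb45 clf29 library was replicate 1. The median of the 13 was 64.7% of the WT mean in replicate 1, 136% in replicate 2 and 112% in the library without a number. SARD1, an activator of salicylic acid synthesis genes, had 2.76, 6.34 and 4.54 CPM in trb45 clf29, 0.537, 1.09 and 0.848 in clf29, 4.47, 3.56 and 3.66 in trb45 and 2.72, 3.54 and 3.26 in WT. All trb45 clf29 libraries were above clf29, yet they overlapped trb45 and WT, and neither comparison called it. RLP41, a receptor-like protein, had 0.894, 8.77 and 5.43 CPM in trb45 clf29, 1.04, 0.741 and 0.719 in clf29, 1.52, 1.38 and 2.02 in trb45 and 1.68, 1.48 and 1.93 in WT. Replicate 1 of trb45 clf29 lay among the clf29 libraries and the other two were above all WT libraries, and the difference between trb45 clf29 and trb45 was 1.74 (SE 0.48, adjusted p = 0.0132, lost without trb45 clf29 replicate 2, with adjusted p up to 0.0908). HIR2, a membrane-associated immune protein, had 5.7, 17.8 and 12.4 CPM in trb45 clf29, 3.09, 4.17 and 3.41 in clf29, 7.34, 8.17 and 7.11 in trb45 and 7.72, 8.05 and 8.25 in WT. HIR2 was higher in trb45 clf29 than in trb45 (log2 fold change 0.79, SE 0.26, adjusted p = 0.0293, lost without trb45 replicate 1 or 3, trb45 clf29 replicate 2, or the unnumbered trb45 clf29 library, with adjusted p up to 0.195). The lectin gene AT3G15356 was higher in trb45 clf29 than in trb45 (log2 fold change 0.45, SE 0.15, adjusted p = 0.0323, lost without trb45 replicate 1 or 3, trb45 clf29 replicate 2, or the unnumbered trb45 clf29 library, with adjusted p up to 0.164). Its relative AT3G16530 had 10.04, 25.4 and 17.7 CPM in trb45 clf29, 3.33, 1.94 and 2.62 in clf29, 11.5, 17.57 and 15.1 in trb45 and 10.8, 9.74 and 11.7 in WT, and was not called. PNP-A, a secreted peptide, had 0.559, 2.03 and 1.05 CPM in trb45 clf29, 0.556, 0.408 and 0.646 in clf29, 0.259, 0.461 and 0.444 in trb45 and 1.57, 1.67 and 1.26 in WT. Replicate 1 of trb45 clf29 lay among the clf29 libraries. PNP-A was lower in trb45 than in WT (log2 fold change -1.97, SE 0.40, adjusted p = 0.00184), and higher in trb45 clf29 than in trb45 (log2 fold change 1.77, SE 0.40, adjusted p = 0.00434).

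The receptor kinase gene CRK12 stood apart from the other defence members. It had 0.224, 0.672 and 0.448 CPM in trb45 clf29, 0.0185, 0.037 and 0 in clf29, 2.01, 2.31 and 2.31 in trb45 and 1.55, 1.04 and 0.927 in WT. With 3 counts or fewer in every clf29 library, the trb45 clf29 mean was at least 8.07-fold higher than the floor of 3 counts. Even so it remained at 38.2% of WT, and was lower in trb45 clf29 than in trb45 (log2 fold change -2.17, SE 0.33, adjusted p = 0.000236). It was higher in trb45 than in WT (log2 fold change 0.90, SE 0.30, adjusted p = 0.0367, lost in 6 of the 12 fits that left out a library, with adjusted p up to 0.158). CRK4, the lectin kinase genes AT4G27300 and AT4G28350, the leucine-rich repeat kinase gene AT1G56120, the ubiquitin ligase gene PUB24 and the hydrolase gene NUDT6 were called in neither comparison. Among 13 salicylic acid defence genes tested, SARD1 among them, 0 were higher and 6 lower in trb45 against WT, and 6 were higher and 0 lower in trb45 clf29 against trb45. The 0 counts were also 0 at an unadjusted p under 0.05 and by DESeq2. The median log2 fold changes of these 13 were -0.28 and 0.35, beside 0.01 and 0.00 over all genes. Of all genes, 11.2% were lower in the first comparison and 15.8% higher in the second, and both comparisons use the trb45 libraries. In clf29 against WT, a contrast that the rule used, 2 of the 13 were higher and 6 lower. There 18.5% of all genes were higher and 16.2% lower.

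Transport and nutrition genes made up 9 members, and 6 of them were higher in trb45 than in WT, as were 14.5% of all genes. The group takes in AT1G13609 and AT2G14247, 2 of the 6, which were placed beside ORG1 and are not annotated as transporters. ORG1, a plastid protein named with the iron regulators ORG2 and ORG3 that the rule left out, had 65.8, 77.4 and 72.8 CPM in trb45 clf29, 30.3, 22 and 25.5 in clf29, 240.0, 237 and 239 in trb45 and 149, 129 and 138 in WT. No group overlapped another, and ORG1 was higher in trb45 than in WT (log2 fold change 0.77, SE 0.08, adjusted p = 6.32e-06) and lower in trb45 clf29 than in trb45 (log2 fold change -1.60, SE 0.08, adjusted p = 3.44e-09). AT1G13609, a defensin-like gene, had 19.7, 17.8 and 18.9 CPM in trb45 clf29, 2.43, 2 and 2.45 in clf29, 66.2, 72.8 and 84.1 in trb45 and 34, 29.7 and 31.4 in WT. It followed the same order of groups, with 1.22 (SE 0.09, adjusted p = 8.28e-08) and -1.85 (SE 0.09, adjusted p = 1.38e-09). So did AT2G14247, whose product is not characterised, with 1.29 (SE 0.20, adjusted p = 0.000222) and -1.85 (SE 0.21, adjusted p = 1.37e-05). Of the 11 iron genes left out, ORG2 (AT3G56970) had a mean of 41.5% of WT in trb45 clf29, 2.56% in clf29 and 319% in trb45, and all 11 had a higher mean in trb45 than in any other group. PHT1;4, a phosphate transporter, had 0.894, 0.97 and 1.34 CPM in trb45 clf29, 0.667, 0.333 and 0.295 in clf29, 5.18, 5.45 and 6.13 in trb45 and 2.11, 3.17 and 2.87 in WT. It was higher in trb45 than in WT (log2 fold change 1.02, SE 0.22, adjusted p = 0.00275), and lower in trb45 clf29 than in trb45 (log2 fold change -2.25, SE 0.24, adjusted p = 7.55e-06). UMAMIT17, an amino acid transporter relative, had 20.6, 37.1 and 29.2 CPM in trb45 clf29, 4.8, 2.43 and 3.43 in clf29, 26.7, 19.1 and 26.3 in trb45 and 9.75, 8.57 and 9.15 in WT. Its trb45 and trb45 clf29 libraries were all above WT, with 1.38 (SE 0.19, adjusted p = 7.7e-05) in trb45 against WT.

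DUR3, a urea transporter, showed another order. It had 3.26, 4.27 and 4.18 CPM in trb45 clf29, 0.944, 1.35 and 1.27 in clf29, 1.37, 1.27 and 1.3 in trb45 and 3.55, 3.3 and 3.15 in WT. The clf29 and trb45 libraries overlapped each other, and the trb45 clf29 libraries lay above both and overlapped WT. DUR3 was lower in trb45 than in WT (log2 fold change -1.36, SE 0.17, adjusted p = 2.57e-05), and higher in trb45 clf29 than in trb45 (log2 fold change 1.70, SE 0.17, adjusted p = 3.76e-06). PCR1, a metal transport protein of the plasma membrane, had 0.0186, 15.9 and 8.4 CPM in trb45 clf29, 0.593, 0.241 and 0.221 in clf29, 0.314, 0.286 and 0.278 in trb45 and 1.05, 1.11 and 1.13 in WT. Its trb45 clf29 libraries ranged from 1 count to far above WT, so its mean of 739% of WT and the call of 4.90 (SE 1.01, adjusted p = 0.00227) in trb45 clf29 against trb45 rest on 2 of the 3 libraries. TAT3, a tyrosine aminotransferase outside the role groups, also had uneven libraries, with 0.224, 16.5 and 9.97 CPM in trb45 clf29, 0.556, 0.482 and 0.184 in clf29, 0.628, 0.351 and 0.463 in trb45 and 0.444, 3.17 and 1.7 in WT. Its WT libraries also varied widely. AT1G11670, a MATE efflux gene, was higher in trb45 than in WT (log2 fold change 0.49, SE 0.13, adjusted p = 0.0142, lost without WT replicate 1 or 3 or trb45 replicate 2, with adjusted p up to 0.0912), and the phosphate starvation gene AT5G03545 was called in neither comparison.

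Cell wall and sugar genes were represented by 5 members. XTH31, a xyloglucan-modifying enzyme, had 39.8, 65.3 and 52.9 CPM in trb45 clf29, 7.91, 8.3 and 7.23 in clf29, 54.6, 37.8 and 52.3 in trb45 and 20.3, 21 and 21 in WT. All libraries of trb45 clf29 and trb45 were above WT, and XTH31 was higher in trb45 than in WT (log2 fold change 1.195, SE 0.14, adjusted p = 1.42e-05). AT3G16660, of the pollen Ole e 1 extensin family, had 6.87, 7.78 and 6.95 CPM in trb45 clf29, 2.43, 2.2 and 2.88 in clf29, 47.6, 68.4 and 58.1 in trb45 and 37.3, 44.7 and 43.7 in WT. Its recovery was small, to 17.2% of WT, and it was lower in trb45 clf29 than in trb45 (log2 fold change -2.88, SE 0.14, adjusted p = 1.38e-09). ATBFRUCT1, a cell wall invertase, had 9.5 ± 1.92 CPM in trb45 clf29 and 3.85 ± 0.187 in clf29, 14 ± 0.549 in trb45 and 11.1 ± 0.724 in WT (mean ± SD, n = 3). It was lower in trb45 clf29 than in trb45 (log2 fold change -0.43, SE 0.11, adjusted p = 0.0102), and higher in trb45 than in WT (log2 fold change 0.32, SE 0.11, adjusted p = 0.0446, lost in 10 of the 12 fits that left out a library, with adjusted p up to 0.191). QQS, a gene found in Arabidopsis that affects starch content, had 0.335, 0.56 and 0.71 CPM in trb45 clf29, 0.185, 0.0741 and 0.0738 in clf29, 1.89, 0.791 and 1.63 in trb45 and 4.18, 2.11 and 3.3 in WT. It was lower in trb45 than in WT (log2 fold change -1.16, SE 0.31, adjusted p = 0.0118, lost without WT replicate 1, with adjusted p up to 0.0618), and lower in trb45 clf29 than in trb45 (log2 fold change -1.29, SE 0.35, adjusted p = 0.0127, lost without trb45 replicate 1 or trb45 clf29 replicate 1, with adjusted p up to 0.059). The extensin-like gene AT2G43150 was higher in trb45 clf29 than in trb45 (log2 fold change 0.44, SE 0.15, adjusted p = 0.037, lost without trb45 replicate 1 or 3, trb45 clf29 replicate 2, or the unnumbered trb45 clf29 library, with adjusted p up to 0.123).

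**Figure D5:**
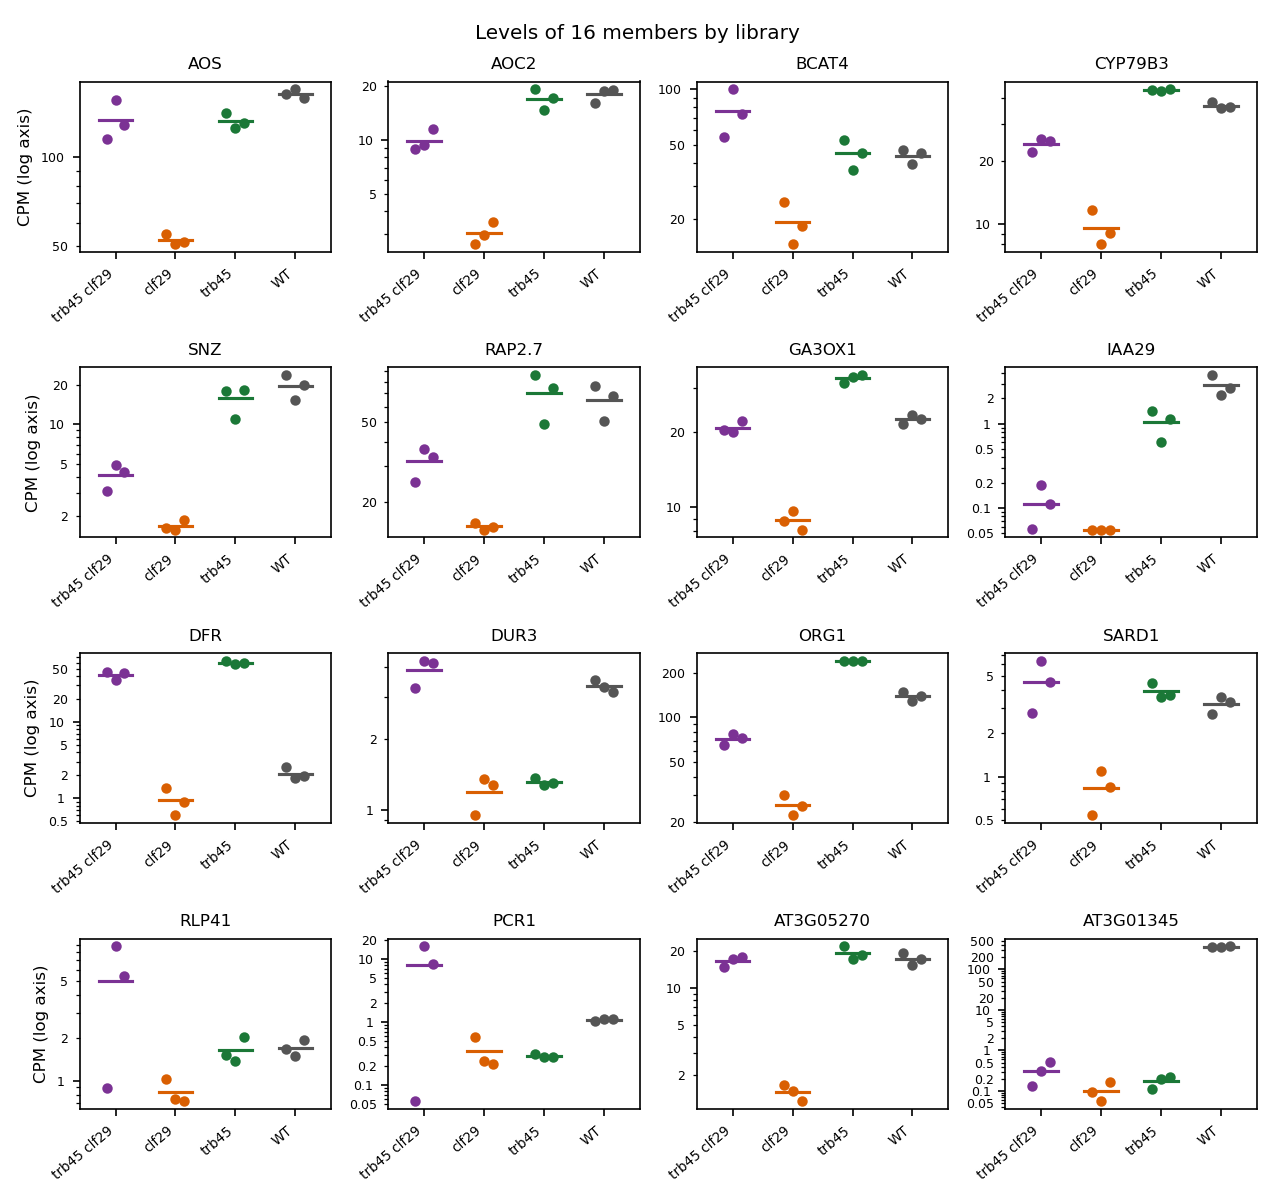
Level in CPM (log axis) of 16 members in each of the 12 libraries, with points for libraries, horizontal lines for group means, and values under 3 counts drawn at that floor. The trb45 clf29 libraries of GA3OX1, SARD1 and AT3G05270 overlap those of WT, those of AOS lie just below, SNZ and IAA29 remain far below it, DFR passes it together with trb45, and AT3G01345 is near 0 in all mutants.

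Among the 42 members in no role group, AT3G05270, a filament-like protein, had 14.9, 17.2 and 17.9 CPM in trb45 clf29, 1.65, 1.46 and 1.22 in clf29, 21.6, 17.1 and 18.3 in trb45 and 19, 15.4 and 17.2 in WT. Its clf29 mean was 8.39% of WT. Its trb45 clf29, trb45 and WT libraries overlapped, and neither comparison called it. AT5G59540, an oxygenase gene, had 18.6, 23 and 22 CPM in trb45 clf29, 3.72, 2.8 and 3.36 in clf29, 24.8, 22.2 and 23.8 in trb45 and 17, 15.4 and 15.6 in WT. In trb45 it was higher than in WT (log2 fold change 0.55, SE 0.09, adjusted p = 0.000242). AT1G12030, of the DUF506 family, had 1.34, 1.19 and 1.1 CPM in trb45 clf29, 0.259, 0.185 and 0.0738 in clf29, 4.9, 7.69 and 5.27 in trb45 and 1.7, 1.41 and 1.63 in WT. It was higher in trb45 than in WT (log2 fold change 1.90, SE 0.23, adjusted p = 1.68e-05) and lower in trb45 clf29 than in trb45 (log2 fold change -2.16, SE 0.23, adjusted p = 8.83e-06), with each trb45 clf29 library just below those of WT. The thioredoxin superfamily gene AT4G15660 showed a like order, with 1.33 (SE 0.16, adjusted p = 2.51e-05) and -1.40 (SE 0.17, adjusted p = 2.36e-05). AT3G27250, whose product is not characterised, had 0.298, 0.634 and 0.374 CPM in trb45 clf29, 0.0741, 0.037 and 0 in clf29, 1.66, 1.54 and 2.05 in trb45 and 3.66, 3.25 and 3.63 in WT. It was lower in trb45 than in WT (log2 fold change -1.02, SE 0.24, adjusted p = 0.00607) and lower again in trb45 clf29 than in trb45 (log2 fold change -1.87, SE 0.29, adjusted p = 0.000268). The protein phosphatase gene AT4G32950 held 3 counts or fewer in every clf29 library and had 0.186, 0.317 and 0.149 CPM in trb45 clf29, at least 3.92-fold above that floor, against 0.85, 1.21 and 0.777 in trb45 and 1.22, 0.779 and 1.56 in WT.

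AT3G01345, whose product is not characterised, met the rule without being restored. It had 0.13, 0.317 and 0.504 CPM in trb45 clf29, 0.0926, 0.037 and 0.166 in clf29, 0.111, 0.198 and 0.222 in trb45 and 367, 356 and 369 in WT. Its level in trb45 clf29 was 0.0871% of WT, and its ratio of 3.22 to clf29 is a ratio between low counts. It was lower in trb45 than in WT (log2 fold change -11.01, SE 0.20, adjusted p = 5.54e-15). The members as a whole are therefore defined by a ratio between the mutants, and not by a WT level in trb45 clf29.

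Upstream sequence was compared next. The 250 bases before the annotated start of each of the 100 members and of all 28008 genes with such a window (RefSeq, TAIR10.1) were searched on both strands. The telobox AAACCCTA was in the windows of 3 members, 3% against 4.53% of all windows, and its shorter form ACCCTA was in 9% against 9.53%. The site II motif TGGGCC, often found beside teloboxes in genes of the translation apparatus, was in 7% of the members' windows against 13.7% of all. The evening element AAAATATCT was in 4% against 2.36%, the G-box CACGTG in 7% against 6.45%, the E-box CANNTG, which includes the G-box, in 55% against 55.3%, the GA repeat GAGAGA in 13% against 20.5% and the DRE core CCGAC in 5% against 11.9%. These shares describe letters in the windows, and 11 of the members' windows overlap another gene. The 3 members with a telobox were AT1G12030, RL5 and CYP706A6. In trb45 against WT, AT1G12030 and CYP706A6 were higher and RL5 was lower, and in trb45 clf29 against trb45 AT1G12030 and CYP706A6 were lower and RL5 was not called (log2 fold change -0.64, SE 0.66, adjusted p = 0.5). Their windows are shown with the telobox, or its reverse complement TAGGGTTT, in capitals because it is the motif that TRB proteins bind (all on the reverse strand of their chromosome, chr1:4066345-4066594, chr1:6757421-6757670 and chr4:7316872-7317121).
AT1G12030: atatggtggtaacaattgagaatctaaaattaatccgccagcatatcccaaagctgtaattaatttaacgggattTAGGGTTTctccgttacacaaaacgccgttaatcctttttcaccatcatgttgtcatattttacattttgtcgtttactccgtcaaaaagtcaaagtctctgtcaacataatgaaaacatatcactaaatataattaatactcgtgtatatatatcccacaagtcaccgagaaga
RL5: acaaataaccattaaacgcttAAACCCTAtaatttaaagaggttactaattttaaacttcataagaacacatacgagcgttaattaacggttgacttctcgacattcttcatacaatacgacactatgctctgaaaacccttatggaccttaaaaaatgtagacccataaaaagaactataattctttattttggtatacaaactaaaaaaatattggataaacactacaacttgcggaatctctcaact
CYP706A6: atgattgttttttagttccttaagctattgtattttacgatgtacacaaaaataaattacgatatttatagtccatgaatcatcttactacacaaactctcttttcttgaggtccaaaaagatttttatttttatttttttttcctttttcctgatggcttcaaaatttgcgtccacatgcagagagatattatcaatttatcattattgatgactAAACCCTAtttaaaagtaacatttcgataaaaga

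By position, 19, 19, 27, 15 and 20 members lay on chromosomes 1 to 5, which hold 26.4%, 15.7%, 19.8%, 15.1% and 23.0% of the annotated genes counted. Directly neighbouring members were AT1G30250 and AT1G30260 on opposite strands, AT2G39240 and SNZ, AOC1 and AOC2, and CYP706A5 and CYP706A6. AT1G30250 had 3.09, 4.48 and 4.37 CPM in trb45 clf29, 0.87, 0.778 and 0.959 in clf29, 7.71, 5.38 and 7.46 in trb45 and 8.99, 8.31 and 8.86 in WT. AT1G30260 had 5.77, 9.68 and 8.39 CPM in trb45 clf29, 3.07, 2.78 and 3.56 in clf29, 9.3, 8.52 and 8.55 in trb45 and 6.85, 9.03 and 8.45 in WT. Of this pair AT1G30250 was lower in trb45 clf29 than in trb45 (log2 fold change -0.65, SE 0.14, adjusted p = 0.00328), and AT1G30260 was called in neither comparison.

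Other pathway lists held few or no members. Over all genes tested, 14.5% were higher and 11.2% lower in trb45 against WT. In trb45 clf29 against trb45, 15.8% were higher and 14.7% lower. Of 19 clock genes tested, 0 were members, and 3 were higher and 1 lower in trb45 against WT. In trb45 clf29 against trb45, 0 were higher (1 at an unadjusted p under 0.05, 0 by DESeq2) and 8 lower. Of 11 cold genes, again with 0 members, 3 were higher and 1 lower in trb45 against WT. In trb45 clf29 against trb45, 1 was higher and 5 lower. Of 9 phosphate starvation genes tested PHT1;4 was a member, and 3 were higher and 2 lower in trb45 against WT. In trb45 clf29 against trb45, 0 were higher (also 0 at an unadjusted p under 0.05 and by DESeq2) and 2 lower. Of 15 auxin genes tested IAA29 was a member, and 1 was higher and 4 lower in trb45 against WT. In trb45 clf29 against trb45, 1 was higher and 6 lower. GA3OX1 was the member among 7 gibberellin and brassinosteroid genes, 4 of which were higher and 0 lower in trb45 against WT. That 0, and the 0 of the 8 hormone members, were also 0 at an unadjusted p under 0.05 and by DESeq2. In trb45 clf29 against trb45, 2 of these 7 genes were higher and 2 lower. The lists for nitrate, sulphur, copper, wall loosening, abscisic acid and drought, sugar starvation, sugar storage, heat, and rapid wound and touch responses held 0 members. A list with 0 members was not thereby unchanged. Of 10 nitrate genes tested, 6 were higher and 1 lower in each of the 2 comparisons. Of 8 sugar starvation genes tested, 0 were higher and 5 lower in trb45 against WT. In trb45 clf29 against trb45, 2 of the 8 were higher and 0 lower.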

How the data were processed

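RNA of 12 leaf libraries was sequenced as stranded polyA libraries, per the labels' protocols. As deposited by the authors, each value is an unscaled count of reads for 1 gene in 1 library, and library totals differ. TAIR10, HISAT2 and DESeq2 are named in the submitters' processing notes without a role, and the counting program, its strand setting and the annotation are not given in the sources used here, so the counts of close copies, overlapping genes and antisense pairs are uncertain. Of the 12 value columns, 1 of trb45 clf29 has no number. Members were found by their rule on CPM over column sums, and the members, lists and role groups were chosen with earlier results of these data known.

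The count test was the quasi-likelihood test of edgeR 4.0.16 (R 4.3.3). Its function filterByExpr (minimum count 10, minimum total 15) kept 19138 genes, all 100 members among them, of which 83 would have passed on clf29 libraries alone. All 12 libraries entered 1 fit with a mean for each of 4 groups and TMM factors of 0.935 to 1.07. The coefficient of variation was 0.0955. Calls are Benjamini-Hochberg adjusted p under 0.05 over the genes tested. The SE of a log2 fold change is its size over the square root of the F statistic. Tests were made on trb45 against WT and trb45 clf29 against trb45. Calls in the contrasts that chose the members are a description. They are given only as counts over pathway lists and all genes, and they entered the condition for the 13 flagged members. A floor of 3 counts was used for lower bounds, and floors cover counting error only, since the reads carry no molecular identifiers.

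Genes were named by a rule: the mutated genes, the 10 members with the highest WT level, the lowest clf29 ratio or the highest trb45 clf29 ratio, the 5 largest changes each way in either test, those at the thresholds, and those in a list or family. Other genes were named after their values were seen. Symbols, coordinates and windows came from RefSeq TAIR10.1 by locus tag, in which 28009 of 28775 tags matched; the count table holds no coordinates. Replicate pairs of a group differed by more than sampling noise (chi-square per degree of freedom 6.73 to 30.1). Alternatives were other scalings, no filter, DESeq2 1.42.0, a replicate block, each library left out, fits of 6 libraries, and other thresholds and windows.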

Additional observations from a re-analysis of the deposited data

Results flagged for a closer look

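For 13 members the changes between trb45 clf29 and clf29 and between trb45 and WT were both called, in opposite directions. Members with opposite changes that were not both called are not counted. The 13 are among the 14 members called lower in trb45 against WT, where 11.2% of all genes tested were lower. The rule itself fixed the direction between trb45 clf29 and clf29, so the size of the difference is a description with no test. The difference of the 2 log2 fold changes was 12.71 for AT3G01345, whose level in every mutant was near the floor. It was 4.52 for AT3G27250 and 4.44 for IAA29, both near the floor in clf29. It was 3.43 for QQS, 3.17 for PNP-A, whose trb45 clf29 libraries overlapped those of clf29, and 3.10 for DUR3. It was 2.53 for AT2G22200, 2.47 for FAMT, 2.44 for AT2G25735 and 2.24 for AT5G14730, and 1.99 for AT2G41870, 1.91 for AT5G12050 and 1.70 for AOS. The call in trb45 against WT was lost in 9 of the 12 fits without a library for FAMT (adjusted p up to 0.111) and in 8 for AT5G14730 (up to 0.108). It was lost in 1 fit each for AT2G25735 (up to 0.0503), AT2G22200 (up to 0.0561) and QQS (up to 0.0618). Of the 13, DUR3, chosen after its values were seen, had 3.26, 4.27 and 4.18 CPM in trb45 clf29 and 0.944, 1.35 and 1.27 in clf29, against 1.37, 1.27 and 1.3 in trb45 and 3.55, 3.3 and 3.15 in WT, so that each single mutant was low and the combined mutant overlapped WT. AT5G12050, a rho GTPase-activating protein, had 7.62, 8.99 and 8.5 CPM in trb45 clf29, 3.2, 2.91 and 3.19 in clf29, 8.8, 9.01 and 10.6 in trb45 and 13.5, 11.6 and 13.2 in WT. FAMT, a methyltransferase, had 1.64, 9.48 and 6.95 CPM in trb45 clf29, 2.93, 1.93 and 2.66 in clf29, 3.09, 1.49 and 2.24 in trb45 and 4.9, 5.56 and 4.91 in WT, and its trb45 clf29 libraries overlapped those of clf29.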

How the results depend on the processing

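The number of members moved with the thresholds, to 322 at a fold of 1.5, 29 at a fold of 3 and 49 with a WT minimum of 5 CPM. On TMM-scaled library sizes it was 94, of which 90 were shared, and leaving out 1 library gave 87 to 124. Members higher in trb45 clf29 than in trb45 numbered 14 in the fit reported, 9 with library size alone, 8 in the fit of the 6 libraries compared, 12 by DESeq2 and 5 to 22 when a library was left out. Replicate numbers did not pair the samples across all groups: 2 of 15 same-numbered pairs had a correlation of deviations over 0.1 (range -0.255 to 0.322). These 2 were replicates 1 (0.2735) and 2 (0.3224) of WT and trb45, where the crossed numbers had -0.2944 and -0.293. Between trb45 and trb45 clf29 it was the crossed pairs of replicates 1 and 2 that were positive, at 0.2304 and 0.2418. What these libraries shared was not tested. The fit with the replicate number as a block also left out the unnumbered trb45 clf29 library. It called 4 members higher in trb45 clf29 than in trb45 and 3115 genes in all. With that library left out and no block these were 8 and 4174, and in the fit reported 14 and 5829. Of 39 members called in trb45 against WT, 14 lost the call in at least 1 fit without a library and 4 with the block. Of 50 called in trb45 clf29 against trb45, 19 and 18 did so, and 9 in the fit of 6 libraries. No call changed direction under these settings. Motif counts were 4 windows for ACCCTA and 43 for the E-box in the 150 bases nearest the start, and 7 for the GA repeat on the given strand alone. The cause of these shifts was not tested. Depth limits the 3 members at or under 3 counts in every clf29 library.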
